A study of Salmo salar with 64 samples.

Results

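A set of 104 genes whose liver transcript level rose only at the last time point, T4, was drawn from the 81574 rows of a gene count table of female Atlantic salmon. Broodstock in the fourth year of life were held under a light regime that sets off sexual maturation, and brain, pituitary, ovary and liver were taken from fish killed at each of 4 time points. The groups were T1, just before long days began, and T2, T3 and T4, which followed at steps of a fortnight, and the labels name no genetic change or drug in any group. Each of the 16 groups of tissue and time held 4 libraries that the labels call biological replicates, so that the design held 64 libraries of mRNA. Every fish came from 1 managed stock and T2 to T4 share the long days, so light regime, time in the tank and season cannot be told apart from one another.

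The genes were chosen on the liver values themselves. A row had to have a liver mean over 5 CPM (the count scaled so that each library has the same total), which 13412 rows had, and that mean had to lie between 0.1 and 20 times the highest mean of the other tissues, which left 11717 rows. In 112 of these, or 0.956%, all 4 T4 liver libraries lay above all 12 liver libraries of T1 to T3 on the scale log2(CPM + 1). For 104 of the 112 the T2 and T3 means also lay within 0.5 of the T1 mean, and these are the members. The rule allowed 150 genes ranked by the T4 mean minus the T1 mean, so none was left out by rank. The opposite pattern, all 4 T4 libraries below all 12 earlier ones, was met by 50 of the 11717 rows. Because the rule used the liver values, the liver levels and differences of the members are descriptions and carry no test.

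The liver of a maturing female fish makes the yolk precursor vitellogenin and eggshell proteins under the control of ovarian oestrogen, and supplies lipid and energy to the growing oocytes. Genes that act in every cell, such as those of transcription, RNA processing and protein turnover, are also transcribed there. Photoperiod is read by the brain and pituitary, and a daily clock of transcription factors runs in liver as well as in nervous tissue.

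Of the members, 101 are annotated as protein coding and 1 as a pseudogene in the RefSeq gene table of the assembly Ssal_v3.1, and 2 have no symbol. A gene name other than LOC and a number was given to 21, and the gene descriptions in the supplementary lists of the study name 4 more. Several of the named genes act in transcription, in RNA processing or on other proteins: ints6 of the Integrator complex, med17 and med30 of Mediator, ing3 of a histone acetyltransferase complex, and the RNA-binding rbm6, rbm14b and rbm33a. None of the genes on the 22 other pathway lists that were examined was a member. Among these lists were those for cholesterol synthesis, for ribosomal proteins and for the egg yolk and eggshell genes. Most members, 81, have a LOC number for a symbol and could hardly be matched to a list by name. With 104 members among 11717 rows a short list would often hold none, so the absence says little about these pathways. The files were mapped to another assembly than the annotation at hand, so no coordinates are given.

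The liver libraries differed in ways that touch every value below. Total counts were 32.7 to 34.9 M in the T4 libraries, against 20.6 to 26.5 M in the 12 libraries of T1 to T3, so T4 was also the deepest group. Within T4, only 8 genes differed by more than 4-fold between replicate 1 and replicate 2, and 42 between replicate 3 and replicate 4, whereas the other 4 pairings gave 635 to 759. Both close pairs still differed by more than counting noise, with a median chi-square 2.75 and 4.69 times its expectation. The 4 libraries were counted as 4 samples, as labelled, and the methods of the study give 4 fish per time point as biological replicates. Whether the libraries of a pair share a preparation is not given in the sources used here and was not tested. The summed CPM of hepatocyte markers (13 of 14 detected above 1 CPM) was 78427 to 88450 at T4. All T4 sums lay below those of T1, which were 96242 to 99502. Over T1 to T3 together the range was 74994 to 109929. The genes of the list moved in both directions. The means of alb2, apoa2, fgg, tfa, apoa1, fga and serpina10a were lower at T4 than over T1 to T3. Those of ahsg2, ahsg1, rbp4, apoba, ttr and serpina10b were higher. For alb2 the means were 12891 CPM at T4 and 16913 CPM earlier, and for ahsg2 they were 8143 and 6415 CPM.

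Markers of leukocytes marked off the same pair of T4 libraries. The neutrophil list, with lyz, mmp13 and csf3r among its 9 genes and 1 ncf4 entry at 0, summed to 335, 345, 48 and 34.2 CPM in T4 replicates 1 to 4, against 30.3 to 168 CPM in the earlier libraries. The list for T and NK cells, with cd3e and gzma among its 8 genes and none at 0, summed to 38.6, 43.1, 10.1 and 8.63 CPM at T4, against 5.28 to 16 CPM earlier. The macrophage list summed to 350, 307, 174 and 163 CPM at T4, against 136 to 211 CPM earlier, and 4 of its 9 genes (marco, lgals3a, aif1 and c1qc) had no count in any liver library. Replicates 1 and 2 were thus high and replicates 3 and 4 lay within the earlier range on these 3 lists. The B cell list summed to 70.8 to 102 CPM at T4, against 52 to 79 CPM earlier, and the endothelial list to 56.6 to 75.9 CPM at T4, against 41.8 to 99.5 CPM earlier. The gene cd37, with a T4 mean of 6.76 CPM, was on both the B cell list and that for T and NK cells. Most of the B cell sum was blnk, with a T4 mean of 74.1 CPM. Cell shares and RNA per cell cannot be told apart in whole tissue, and the part of these cells in the members' values was not tested.

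**Figure D1:**
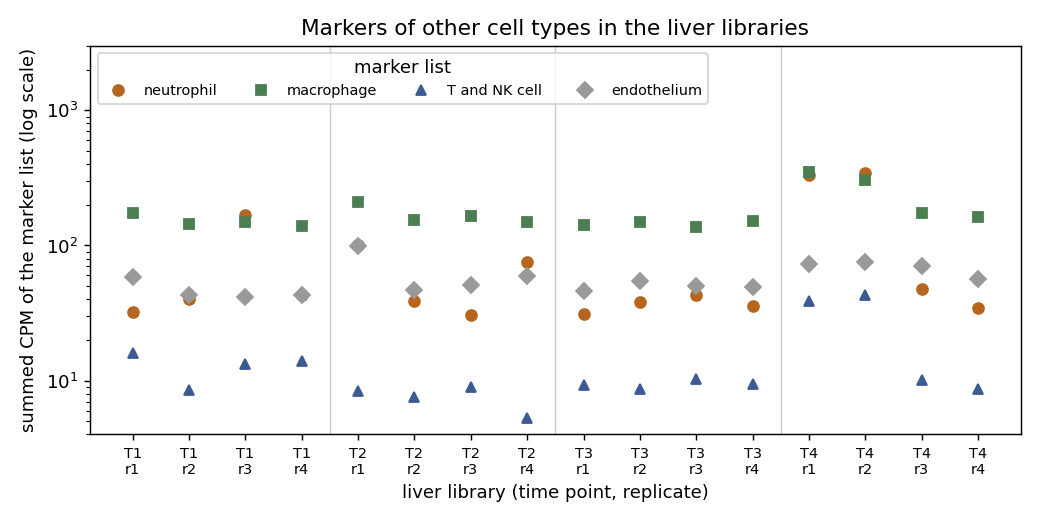
Summed CPM (log scale) of 4 marker lists in each of the 16 liver libraries, ordered by time point and replicate, 1 point per list and library. The neutrophil list stood at 335 and 345 CPM in T4 replicates 1 and 2 and at 48 and 34.2 CPM in replicates 3 and 4.

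The rise of the members was small. The T4 mean exceeded the T1 mean by a median of 0.45 on the log2 scale, with a range of 0.16 to 1.25, and the difference was over 1 for 1 member, over 0.75 for 11 and over 0.5 for 40. The T2 and T3 means stood at medians of 0.01 and -0.07 from the T1 mean, within the limit that the rule set. The SD between replicates had a median of 0.15 at T4 and 0.13 at T1 (n = 4 each). The lowest T4 library lay above the highest earlier one by a median of 0.05, and by less than 0.1 in 84 members.

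The median of all rows in liver moved in the same direction, which bears on how far the members stand out. Over all 11717 rows the median T4 difference from T1 was 0.23, so that the members' median lay 0.22 above it, and 98 members exceeded it. The rule favoured high T4 values, so this was largely set by the choice of members. The upper quartile of all rows was 0.56, above the members' median of 0.45, so many other rows rose more. The lower quartile of all rows was -0.08, so many rows fell. In 6557 rows the difference was at least that of the lowest member. TMM scaling brought the median of all rows down to 0.05 and that of the members to 0.26, and RLE scaling brought them to 0.02 and 0.23. After TMM scaling 103 members were still higher at T4 than at T1, the exception being med17, and 33 still had all T4 libraries above all earlier ones. After RLE scaling these counts were 100 and 25.

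**Figure D2:**
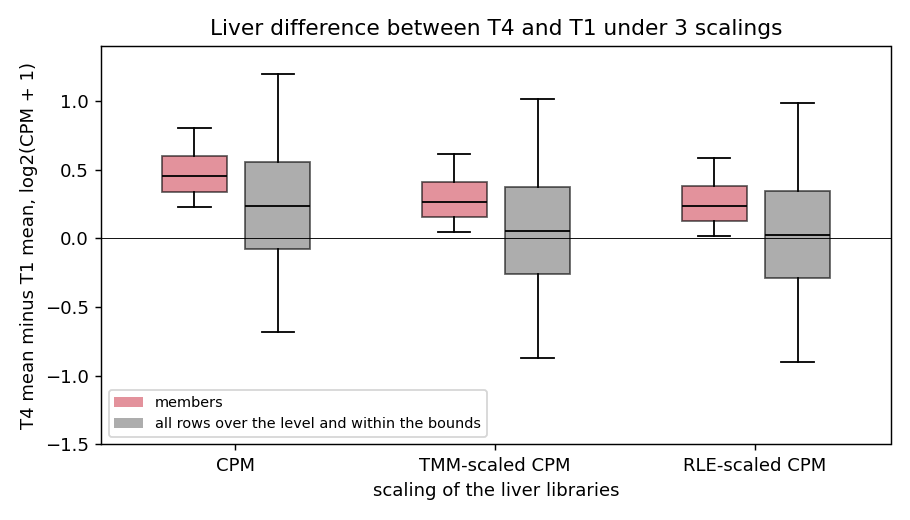
Difference between the T4 and T1 liver means on the log2(CPM + 1) scale for members (left box of each pair) and for all 11717 rows over the level and within the bounds (right box), with plain CPM, TMM and RLE scaling; lines mark medians, boxes the quartiles and whiskers the 5th and 95th percentiles. The members' median was 0.45, 0.26 and 0.23 under the 3 scalings, against 0.23, 0.05 and 0.02 for all rows.

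The members' median deviation from the T1 mean was 0.47, 0.60, 0.43 and 0.28 in T4 replicates 1 to 4. For all rows these medians were 0.27, 0.33, 0.21 and 0.10. Before T4 the members did not share 1 direction. Those above their T1 mean numbered 42 to 75 in the T2 libraries and 14 to 69 in the T3 libraries. T4 replicate 2 was the highest T4 library in 67 members and replicate 4 the lowest in 82. T3 replicate 1 stood out on the low side, with a median of -0.28 for members and -0.06 for all rows, and it was the lowest of the 16 libraries in 55 members. Replicates 1 and 2 alone put the members' T4 difference at a median of 0.54, and replicates 3 and 4 alone put it at 0.35, against 0.30 and 0.15 for all rows. The rule required each T4 library to lie above all earlier ones, so the sign of these differences was set by the choice of members.

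**Figure D3:**
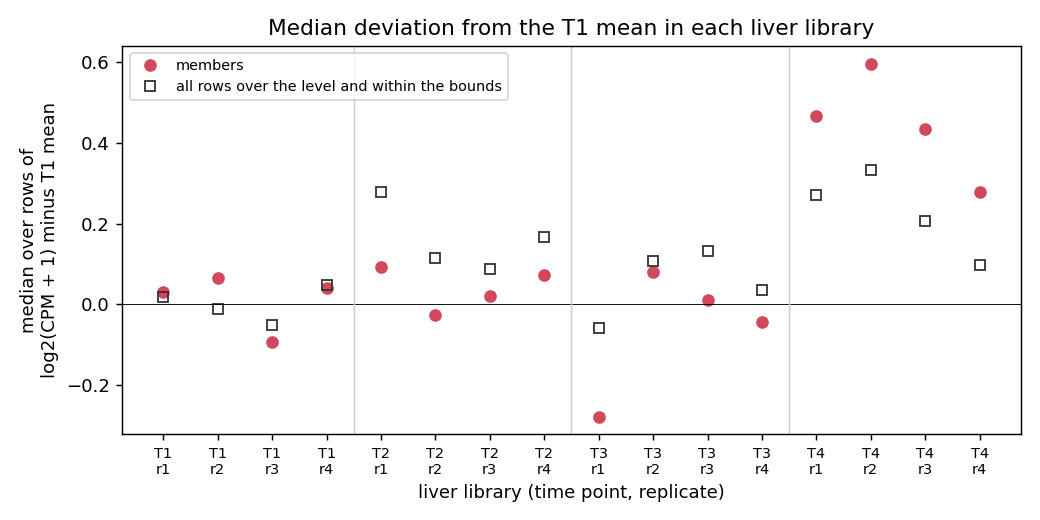
Median deviation of log2(CPM + 1) from the T1 mean in each liver library, for members (filled circles) and for all 11717 rows over the level and within the bounds (open squares). Members lay at 0.28 to 0.60 in the 4 T4 libraries and at -0.28 in T3 replicate 1.

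The member with the largest difference was LOC106611246, a gene known only by its number. It had 15, 14.1, 15.4 and 15.1 CPM in the T4 livers, against 3.92 to 12.8 CPM (median 5.54) in the 12 earlier ones. The T4 livers agreed closely and lay 1.25 above T1 on the log2 scale (SD 0.05 at T4 and 0.42 at T1, n = 4 each), whereas T1 replicate 2 and T3 replicate 2 reached 9.28 and 12.8 CPM. LOC106560887 came next, with 10.5, 12.3, 9.11 and 6.59 CPM at T4, against 3.25 to 6.53 CPM (median 4.76) earlier, a difference of 0.96. Its T4 replicate 4 lay just above the top of the earlier range.

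Among the members with a gene symbol other than a LOC number, ints6 and lpgat1 had the largest differences. The gene ints6 encodes a subunit of Integrator, which processes small nuclear RNAs and ends unproductive transcription. It had 10.6, 11, 7.21 and 6.47 CPM at T4, against 1.75 to 6.02 CPM (median 4.70) earlier, which is 0.81 above T1 (SD 0.35 at T4 and 0.09 at T1, n = 4 each). T4 replicates 1 and 2 were well above replicates 3 and 4, and the low end was T3 replicate 1. The gene lpgat1 encodes an acyltransferase that remodels phospholipids. It had 29.7, 29.2, 27.7 and 24.5 CPM at T4, against 11.6 to 24.3 CPM (median 17.2) earlier, which is 0.80 above T1, and the T2 mean was already 0.33 above T1.

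Another member of phospholipid metabolism was ddhd1b. This phospholipase gene had 23, 25, 22.7 and 20.1 CPM at T4, against 10.2 to 19.7 CPM (median 15.6) earlier. The T4 mean was 0.58 above T1, and the lowest T4 library, replicate 4, lay just above the highest earlier one, T3 replicate 3.

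Kinases and transcription factors formed another group. LOC106611444, described as a MAP kinase kinase kinase kinase 5-like gene of the Ste20 kinase family, had 12.1, 14.8, 12.9 and 9.51 CPM at T4, against 4.21 to 8.68 CPM (median 7.18) earlier, and its difference of 0.84 from T1 ranked 4 among the members. The nuclear kinase gene hipk1a had 9.33, 9.84, 9.29 and 7.75 CPM at T4, against 5.91 to 7.72 CPM (median 6.61) earlier. The ETS-family factor elk3 was one of the most abundant members by CPM, with 119, 118, 116 and 111 CPM at T4, against 59.1 to 106 CPM (median 86.6) earlier. Its T4 values were tight (SD 0.04 on the log2 scale, n = 4), but its difference of 0.29 fell to 0.09 after TMM scaling. LOC106578332, described as a myc-associated zinc finger protein-like gene, differed by 0.31 and the zinc finger gene znf511 by 0.24.

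The members of the chromatin and transcription machinery ranged widely in difference. The gene phf21ab, whose product reads unmodified histone H3 tails, had 18.3, 22.4, 17 and 14.4 CPM at T4, against 8.30 to 13.8 CPM (median 12.2) earlier, a difference of 0.63. LOC106612987, described as a bromodomain and WD repeat protein 3-like gene, had 21.7, 27.6, 22.2 and 20.5 CPM at T4, against 11.6 to 19.3 CPM (median 16.2) earlier, a difference of 0.35. The Mediator subunit gene med30 differed by 0.38, the histone acetyltransferase subunit gene ing3 by 0.24 and the Mediator subunit gene med17, which ranked last, by 0.16. For med17 the T4 range was 11.5 to 12.2 CPM, against 7.51 to 11.5 CPM earlier, so the last member met the rule by a small margin.

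**Figure D4:**
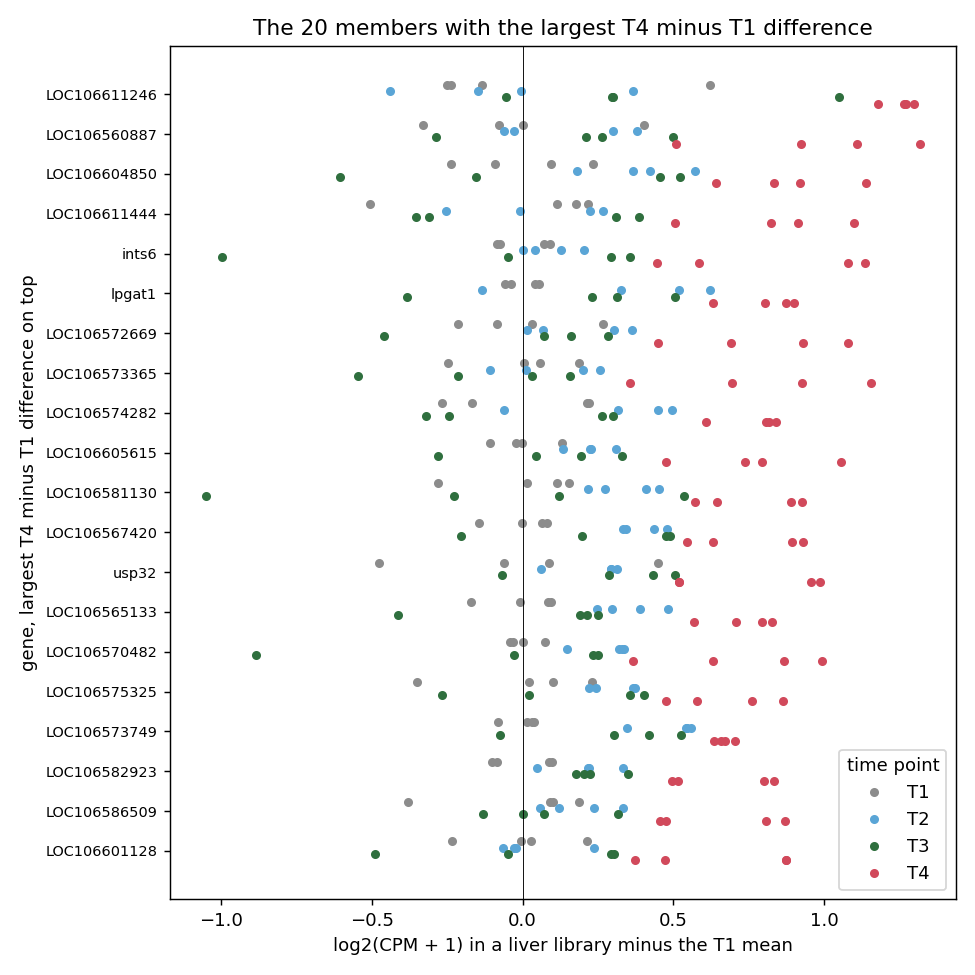
Each row is 1 of the 20 members with the largest difference, and each point is 1 liver library, placed by its log2(CPM + 1) minus the mean of the 4 T1 libraries and coloured by time point. The T4 points lie right of all others in each row because the rule required it, and LOC106611246 is at the top with a mean difference of 1.25.

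The values at the edge of the rule show how fine the line was. The smallest gaps between the lowest T4 library and the highest earlier one were 0.00017 for LOC106584340, 0.00075 for med17 and 0.00090 for LOC106570138. Just outside, the gaps of LOC100380702, LOC106567773 and arhgap29a were -1.9e-05, -5.2e-05 and -0.00044, and their T4 differences from T1 were 0.35, 0.43 and 0.47. On the other limit, LOC106573749 was kept with a T2 mean 0.50 from T1, whereas LOC106570127 and LOC106569460 were dropped with a T2 or T3 mean 0.58 from T1.

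There were 9 members on 5 pathway lists, and the other genes of these lists were tested between T4 and T1 in liver with edgeR's quasi-likelihood test. A gene passed with a p under 0.05 after Benjamini-Hochberg adjustment and a log2 fold change beyond 1 in either direction. Over all 26528 liver genes tested, 5.75% passed as higher at T4 and 5.21% as lower. The members themselves were chosen on this contrast and are given as values. Fold changes from edgeR are relative to TMM-scaled totals.

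Of protein turnover, usp32 and ube2ka were members. The gene usp32 encodes a deubiquitinase and had 11.8, 16.7, 16.3 and 11.8 CPM at T4, against 5.42 to 11.7 CPM (median 9.90) earlier. The gene ube2ka encodes an enzyme that conjugates ubiquitin and had 18.0, 17.3, 14.7 and 12.5 CPM at T4, against 9.94 to 12.2 CPM (median 10.6) earlier. In both genes T4 replicate 4 lay close to the highest earlier library. Of the 72 other genes on the proteasome and ubiquitin list, 7 rose and 1 fell. The deubiquitinase gene usp16 rose by 1.27 on the log2 scale (SE 0.16, adjusted p = 0.0014, edgeR), with 13.8 ± 2.97 CPM at T4 and 4.93 ± 0.617 CPM at T1 (SD, n = 4 each). The proteasome subunit gene psmd1 rose by 1.11 (SE 0.16, adjusted p = 0.0019), with 81.1 ± 12.4 CPM at T4 and 32.9 ± 4.81 CPM at T1. One of the 2 entries named psmc2, another proteasome subunit, fell by 1.26 (SE 0.22, adjusted p = 0.0038), to 2.59 ± 0.571 CPM at T4, against 5.42 ± 1.15 CPM at T1. Values of the other psmc2 entry are not given here, so the fall is that of this entry alone.

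The list for RNA splicing and processing held 4 members, and their differences were among the smaller ones. The Integrator gene ints6, with a difference of 0.81, was not on this list. The gene rbm14b encodes a nuclear RNA-binding coactivator and had 28.7, 38.0, 35 and 27.6 CPM at T4, against 14.1 to 25.9 CPM (median 23.1) earlier. The genes rbm33a and rbm6, which encode RNA-binding proteins, differed from T1 by 0.38 and 0.30, and snrpb2, which encodes a protein of the U2 spliceosome particle, by 0.34. After TMM scaling these 4 differences were 0.20 for rbm14b, 0.19 for rbm33a, 0.11 for rbm6 and 0.17 for snrpb2. Of the 82 other genes on the list 6 rose and 2 fell. The helicase gene dhx33 rose by 1.72 (SE 0.15, adjusted p = 0.00053, edgeR), with 25, 32.3, 34 and 24.7 CPM at T4 and 6.15, 7.47, 7.84 and 9.20 CPM at T1. The helicase gene dhx29 rose by 1.48 (adjusted p = 0.0033), and ddx4, a germ cell helicase in vertebrates, fell by 2.00 (adjusted p = 0.017) at levels of 0.562 ± 0.452 CPM at T4 and 2.02 ± 0.493 CPM at T1 (SD, n = 4 each).

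Mitochondria and lysosomes held 1 member each. The gene mrps18c, for a protein of the small mitochondrial ribosome subunit, had 13, 11.8, 13.2 and 11.9 CPM at T4, against 7.94 to 11.8 CPM (median 10.2) earlier. Of the 93 other genes of mitochondrial import, translation and carriers, 6 rose and 1 fell. The carrier genes slc25a47b and slc25a12 rose by 2.16 and 1.51 (adjusted p = 0.014 and 0.0013, edgeR), and slc25a39 fell by 1.58 (adjusted p = 0.0035). The lysosomal membrane gene lamp1 had 45.4, 42.8, 44.2 and 40.9 CPM at T4, against 30.6 to 40.4 CPM (median 34.9) earlier, and its gene number occurs in a second entry that had no liver counts. Of the 41 other autophagy and lysosome genes, none rose and gabarapl2 alone fell, by 2.01 (adjusted p = 0.0095), with 2.25 ± 0.871 CPM at T4 and 8.01 ± 3.74 CPM at T1 (SD, n = 4 each). By DESeq2 and by edgeR's exact test 2 of the 41 passed, and 29 had an unadjusted p under 0.05. By unadjusted p, 44 of 72 passed for proteasome and ubiquitin, 43 of 82 for RNA processing and 49 of 93 for mitochondria. Shares over all liver genes by these measures are not given here, so the counts cannot be judged against them.

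The clock held 1 member, LOC106609509, described as aryl hydrocarbon receptor nuclear translocator-like protein 1, the partner of CLOCK in the daily oscillator. It had 72.1, 68.3, 73.3 and 63.3 CPM at T4, against 31.5 to 57.9 CPM (median 49.5) earlier, which is 0.49 above T1 (SD 0.09 at T4 and 0.15 at T1, n = 4 each). Of the 15 other clock genes tested in liver none passed both thresholds in edgeR, in DESeq2 or in edgeR's exact test. By unadjusted p under 0.05, 5 passed, for which no share over all liver genes is given here. The annotated paralogues and partners stood at 9.96 ± 0.650 CPM at T4 and 10.7 ± 1.05 CPM at T1 for arntl1a, at 23.8 ± 1.10 and 21.7 ± 2.62 CPM for bmal2, and at 6.84 ± 0.567 and 5.97 ± 0.380 CPM for clocka (SD, n = 4 each). The hour of sampling within the day is not given in the sources used here.

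The rule bounded the liver mean against the highest mean of the other tissues, so presence of the members outside liver was partly set by it. Not every member was well represented in each tissue: LOC106584340 averaged 46.6 CPM in liver and 0.591 CPM in ovary. Liver had the lowest mean CPM of the tissues in 60 members, or 57.7%, against 46.6% of the 11717 rows. Ovary had the highest mean in 49 members, or 47.1%, the same share as in all rows. Liver was highest in 11 members, elk3 and LOC106584595 among them. The gene elk3 averaged 95.5 CPM in liver, 15.8 in ovary, 13 in pituitary and 10.8 in brain, and LOC106584595 averaged 35.3, 1.77, 0.965 and 6.31 CPM in the same order. At the other end, pabir2 averaged 19.7 CPM in liver and 101 in ovary, and med17 10.3 CPM in liver and 74.6 in ovary.

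The members also had longer genes than the other rows. The annotated span, introns included, was known for 102 members and had a median of 27.6 kb, against 15.1 kb over 11344 rows. When these rows were split by span into 5 bins of equal size, the share that were members was 0.397%, 0.529%, 0.970%, 1.06% and 1.54% from the shortest bin to the longest. The T4 difference from T1 over all rows also grew with span, with medians of 0.17, 0.21, 0.23, 0.28 and 0.28 over the same bins. Span thus moved with the median shift of all rows and not with membership alone. At T2 the medians over the bins ran the other way, from 0.22 in the shortest to 0.07 in the longest.

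The other tissues were not used for choosing which time point was high, and there the members could be tested. The methods of the study give 4 fish per time point, so the tissues appear to share fish and are not a separate sample of animals. The same edgeR test of T4 against T1 was run on 8 libraries in each tissue and adjusted over all genes tested. In the ovary 12 of the 104 members rose and none fell, or 11.5%. The background was 10.3% higher and 0.522% lower over 31619 genes, and 9.32% higher among the rows over the liver level and within the bounds, so the share of members was near the background. DESeq2 and edgeR's exact test also called 12 members in the ovary, and over all genes these tools called 3818 and 4075 in both directions together. By unadjusted p under 0.05, 45 members, or 43.3%, passed in the ovary, against 37.4% of all genes tested. The edgeR count of members rested on single libraries. It was 1 without T1 replicate 1, 4 without T4 replicate 2 and 6 without T1 replicate 4. Without T1 replicate 2 or T1 replicate 3 it was 7, and without T4 replicate 4 it was 8. It was 16 without T4 replicate 1 or replicate 3. Counts over all genes in these fits are not given here, so a general loss of calls cannot be told apart from one in the members.

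The 5 members with the largest ovarian rise differed in level. LOC106584595, which the study's gene ontology table lists under protein tyrosine phosphatase activity, had 1.43, 3.48, 1.29 and 8.42 CPM in T4 ovaries, against 0.589, 0.302, 0.472 and 0.849 CPM in T1 ovaries, a log2 fold change of 2.72 (SE 0.67, adjusted p = 0.026, edgeR). LOC106605631 had 12.2, 38.5, 18.4 and 50.3 CPM at T4, against 5.95, 8.66, 8.29 and 11.8 CPM at T1, a log2 fold change of 1.78 (SE 0.46, adjusted p = 0.031). In both genes T4 replicates 2 and 4 were far above replicates 1 and 3, and all 4 lay above T1. The gene number 106590558, with no symbol, LOC106603258 and LOC106604850 rose by 1.74, 1.74 and 1.66 (adjusted p = 0.035, 0.020 and 0.017). LOC106604850 had 3.23, 6.18, 3.76 and 8.63 CPM at T4, against 1.80, 1.65, 1.97 and 1.45 CPM at T1. None of the 5 passed without T1 replicate 1, and of them LOC106604850 alone passed with each other library left out, with adjusted p between 0.010 and 0.053 over these 8 fits.

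Markers of other cell types moved with the same ovarian libraries. The neutrophil list summed to 202, 389, 160 and 1004 CPM in T4 ovaries, against 56.5, 69.5, 81.5 and 78.9 CPM in T1 ovaries. The list for stellate cells and fibroblasts summed to 1463, 2682, 1767 and 3245 CPM at T4, against 545 to 774 CPM at T1, and the oocyte list to 2281 to 2767 CPM at T4, against 3047 to 3252 CPM at T1. The hepatocyte list summed to 218, 520, 221 and 793 CPM at T4, against 189 to 228 CPM at T1, and the list for T and NK cells to 8.50, 17.9, 6.15 and 56.1 CPM at T4, against 4.19 to 4.80 CPM at T1. The B cell and bile duct lists were also highest in T4 replicates 2 and 4. These 2 libraries thus held the highest values of all these lists but that of oocytes, as well as of the 5 members. Of the 5, LOC106584595, LOC106605631 and LOC106603258 had their highest tissue mean in liver. The part of these cell types in the ovarian result was not tested.

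The other 7 that rose in the ovary were LOC106611246, LOC106570138, rbm14b, med30, LOC106578557, LOC106567432 and LOC106578332, by 1.03 to 1.49 on the log2 scale. The gene rbm14b had 6.80, 12.5, 10.1 and 14.9 CPM in T4 ovaries, against 3.96, 5.14, 4.72 and 3.79 CPM in T1 ovaries, and it stood at 7.34 to 9.39 CPM in T2 ovaries. The gene med30 had 2.21, 3.48, 1.92 and 3.52 CPM at T4, against 1.28, 1.11, 1.14 and 1.13 CPM at T1. Across the members the ovarian medians were 0.22 at T2, 0.19 at T3 and 0.23 at T4 above T1 on the log2(CPM + 1) scale, against 0.03, 0.04 and 0.06 for all 11717 rows. The ovarian medians of the members at T2 and T4 were thus alike, whereas the rule had held the T2 level in liver near T1.

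**Figure D5:**
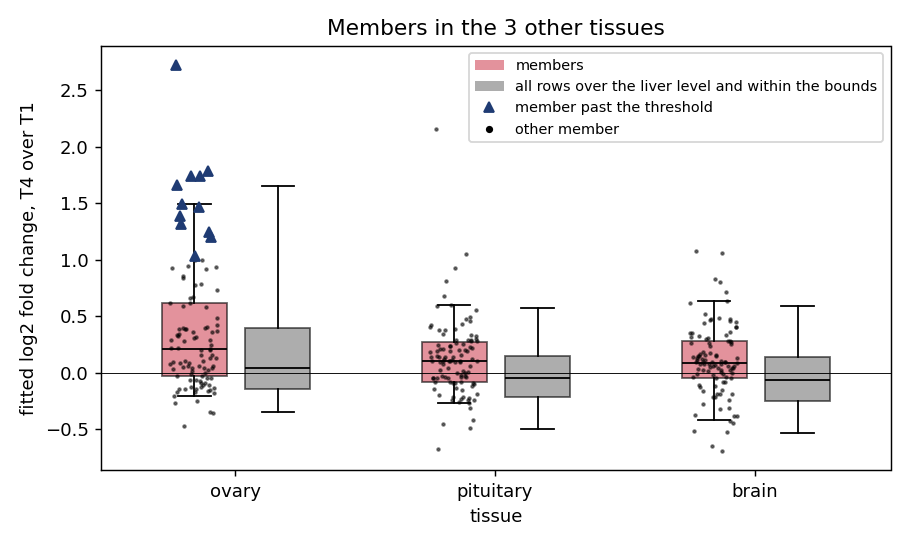
Fitted log2 fold change of T4 over T1 in ovary, pituitary and brain, for members (left box of each pair, with 1 point per member) and for all tested rows over the liver level and within the bounds (right box); lines mark medians, boxes the quartiles and whiskers the 5th and 95th percentiles. Triangles mark the 12 members past the threshold in the ovary, up to 2.72; neither pituitary nor brain has any, and the pituitary point at 2.16 is LOC106584595 (SE 0.78).

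In the pituitary none of the 104 members passed both thresholds in edgeR, against a background of 1.35% higher and 0.434% lower over 32030 genes. DESeq2 called 2 members, edgeR's exact test called 1 and limma-trend on the deposited log2 values called 1, and over all genes these tools called 996, 1051 and 504. In edgeR 38 members, or 36.5%, had an unadjusted p under 0.05, against 26.8% of all genes tested. By the adjusted p alone, for which no share over all genes is given here, 3 members were higher and 2 lower. The strongest of these was the clock member LOC106609509, singled out after its values were seen, with 44.6, 68.2, 46.8 and 55.2 CPM in T4 pituitaries and 21.8, 25.8, 29.5 and 18.1 CPM in T1 pituitaries. All 4 T4 values lay above all 4 of T1, with a log2 fold change of 0.93 (SE 0.14, adjusted p = 0.018, edgeR), just under the fold threshold. In the ovary its log2 fold change was 0.78 (SE 0.24, adjusted p = 0.0498), also under that threshold. The coiled-coil gene ccdc186 followed, with 26.5, 33.7, 36.1 and 39.1 CPM at T4 and 17, 19.2, 23.6 and 21.7 CPM at T1, a log2 fold change of 0.49 (adjusted p = 0.038). The gene number 106590558 was the third, at 0.60 (adjusted p = 0.043). The 2 lower members were LOC106578316, at -0.68 (adjusted p = 0.039), and the mitochondrial gene mrps18c, at -0.49 (adjusted p = 0.045). LOC106578316 had 3.97, 5.99, 4.18 and 4.02 CPM at T4, against 6.47, 6.77, 5.99 and 5.14 CPM at T1, and its groups overlapped.

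The study set its brain libraries aside because the replicates disagreed, and it puts this down to uneven sampling of brain regions. The brain values here carry that limit. No member passed there in edgeR, in DESeq2, in edgeR's exact test or in limma-trend. In edgeR 3 members, or 2.88%, had an unadjusted p under 0.05 in the brain, against 4.87% of all genes tested. The background in edgeR was 0% in both directions over 34267 genes, whereas DESeq2 called 138 genes, the exact test 17 and limma-trend 0. Leaving the test aside, the members' median fitted change lay above that of the other rows in each tissue. Medians for the members were 0.21 in the ovary, 0.10 in the pituitary and 0.09 in the brain, against 0.04, -0.05 and -0.07 for the rows over the liver level and within the bounds. The share of members fitted above 0 was 71.2%, 63.5% and 68.3% in these tissues, against 54.0%, 42.0% and 40.1%. No test of these differences was made, since genes of 1 library share its depth and composition.

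Counts of groups that did not overlap in CPM differed by tissue. All 4 T4 libraries lay above all 4 of T1 in 37 members in the ovary, 14 in the pituitary and 10 in the brain, or 35.6%, 13.5% and 9.62%. The shares over the 11717 rows were 20.3%, 16.5% and 2.36%. The members' share was thus near that of all rows in the pituitary. It was higher in the ovary, and in the brain libraries that the study set aside. Only LOC106570138 had groups that did not overlap in all 3 tissues. In the brain, ccdc186 had 29.0, 30.9, 36.1 and 33.2 CPM at T4, against 23.9, 21.1, 20.9 and 21.4 CPM at T1, whereas LOC106609509 ranged from 40.8 to 118 CPM at T4 and from 11.8 to 57.8 CPM at T1 and overlapped.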

How the data were processed

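RNA from 4 tissues at 4 time points was sequenced in 64 libraries of polyadenylated RNA. The deposited count table holds whole-number read counts per gene; per the labels and the methods of the authors, reads were mapped to ICSASG_v2 with TopHat2 2.1.1 and counted with HTSeq 0.7.2, using strand. Reads that fit several genes were dropped, so close paralogues are uncertain. A second deposited table of 46064 rows holds log2 values, equal to log2(CPM + 1) of the counts within 3.7e-05, although the methods name FPKM. Libraries held 20.6 to 34.9 M counts in liver, 18.6 to 30.6 M in ovary, 23.0 to 29.0 M in pituitary and 17.5 to 51.9 M in brain. At least 44 counts stood behind each member's value in a liver library.

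CPM used all counts of a library as its total, with a pseudocount of 1 before log2. The T4 and T1 libraries of a tissue were compared with edgeR 4.0.16 (R 4.3.3): filterByExpr, TMM, robust quasi-likelihood F test, Benjamini-Hochberg adjusted p below 0.05 and absolute log2 fold change over 1. The fits and the rule were tested on simulated data. Alternatives were RLE, DESeq2 1.42.0, the exact test, limma-trend (limma 3.58.1), no filter, all 16 libraries, a replicate block, the adjusted p alone and leaving out each library. Symbols came from the RefSeq table of Ssal_v3.1, which matched 96.8% of the 13412 rows over the liver level.

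The members, the gene lists and the tests were chosen with earlier results of these data known. The named genes are the 20 members with the largest difference, the members on a list, the up to 5 members that changed most in each other tissue, the members at the edge of the rule and, per list that holds a member, up to 3 others that changed most in liver; the named members outside these were picked because they carry a gene name or description. That replicates are separate fish is taken from the labels and the methods of the study. The p-values measure the spread between these libraries. Values of 1 member are not reported here.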

Additional observations from a re-analysis of the deposited data

Results flagged for a closer look

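Each group of 4 libraries at T4 and T1 was examined for a lone value in 66 groups of the named members, by the gap of the outermost library to its neighbour as a share of the group's range, against Dixon's critical value, which chance passes in about 1 in 20 groups. Only 2 groups passed. LOC106611246, the member with the largest rise, had 9.28 CPM in the liver of T1 replicate 2, where the other T1 livers had 4.61 to 5.09 CPM. LOC106574282 had 9.0 CPM in the liver of T4 replicate 4, where the other T4 livers had 10.5 to 10.7 CPM.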

How the results depend on the processing

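The number of rows that met the liver rule, before any limit by rank, was 104. It was 64 under TMM scaling, with 33 members kept, 42 under RLE scaling, with 25 kept, and 161 with a minimum of 1 CPM, with all 104 kept. Leaving out 1 liver library gave 105 to 529 rows; the top value was without T4 replicate 4 and the next, 198, without T2 replicate 1, and 101 members met the rule in each of these 16 lists. Other settings were chosen after seeing the data. With the T4 libraries summed in pairs 376 rows passed (102 kept). Without T4 replicates 1 and 2, 163 passed (99 kept), and without T4 replicates 3 and 4, 1453 (102 kept). Dropping libraries, summing them or lowering the minimum cannot undo a member's separation of T4 from the earlier libraries. Members could then be lost only through the other limits of the rule, so these kept counts were largely set in advance.

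The 12 members called in the ovary became 7 with limma-trend, which called 1600 over all genes. They became 32 by the adjusted p alone, and 1 to 16 when 1 library was left out. In the pituitary, 0 became 2 with DESeq2, 1 with the exact test and 1 with limma-trend. By the adjusted p alone it became 5, and 0 to 3 when 1 library was left out. For the adjusted p alone and for the fits with 1 library left out, counts over all genes are not given here. In the brain the count was 0 in each setting. In liver, 141 genes of the pathway lists passed, 475 by the adjusted p alone and 115 to 199 when 1 library was left out. The number of list genes tested is not given here. Over all 26528 liver genes 5.75% passed as higher and 5.21% as lower, and the 141 are not read as a result about the lists. Of the named list genes, slc25a47b lost its call with the T4 libraries summed in pairs and psmc2 with limma-trend. The call of ddx4 was lost without T4 replicate 2 and with limma-trend, and that of psmd1 without T4 replicate 3.

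Same-numbered T1 and T4 libraries deviated together only weakly outside the brain. Ovarian correlations were between 0.05 and 0.14, those of the pituitary between -0.11 and 0.17, and of the liver between -0.25 and 0.10. In the brain they ran from -0.67 to 0.65, so they were larger there and did not share a sign. With a replicate block, 11 members were called in the ovary, 0 in the pituitary and 0 in the brain, and 137 liver list genes. The cause of these shifts was not tested.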

Other observations

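The 25 members that met the rule under plain CPM, TMM and RLE scaling alike include ints6, phf21ab, ddhd1b, ube2ka, LOC106604850 and LOC106611444. The member with the largest rise, LOC106611246, is not among them, since under both scalings its T4 libraries no longer lay above all earlier ones, although its T4 mean was still 1.08 and 1.05 above T1. Under TMM scaling 67 rows had all T4 livers above all earlier ones, and under RLE scaling 45.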
